A study of Mus with 8 samples.

Results

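Elastic fibre and fibulin genes were followed in 8 subcutaneous tumours grown from Pan02 cells, a mouse pancreatic cancer line. The 10 genes were elastin (Eln), fibrillin-1 (Fbn1), the microfibril-associated genes Mfap2, Mfap4 and Mfap5, the fibulin genes Fbln1, Fbln2 and Fbln5, and the fibulin-like genes Efemp1 and Efemp2. They were found among the 22911 genes on the array as non-control probes whose RefSeq accession belongs to a member, which gave 15 probes, 2 for each of 5 genes and 1 for each of the others. All 10 passed the filter on dim probes and stood among the 16068 genes tested. Hosts of the 4 Mutant tumours carried Ext1 alleles flanked by loxP sites together with a Cre recombinase under S100a4 control. Those of the 4 Control tumours were wild type, so they lacked both the Cre and the floxed alleles. Hosts of both groups were B6 mice bearing the same cancer cells, whose Ext1 is not targeted. The product of Ext1 polymerises heparan sulfate, a sugar chain carried by matrix and cell-surface proteins. S100a4 is active in fibroblasts and in some other stromal and immune cells, so the deletion need not be limited to fibroblasts and spares the cancer cells. Host age is not given in the labels. Tumours were removed 36 to 40 days after transplantation, and whole-tumour RNA of each was hybridised to its own 1-colour Agilent array.

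An elastic fibre has a core of crosslinked elastin laid down on a scaffold of microfibrils, which are built mainly of fibrillin. Small microfibril-associated proteins bind the fibrillin, while fibulins bring elastin, microfibrils and the crosslinking lysyl oxidases together. Fibrillin and several fibulins bind heparin and heparan sulfate, and microfibrils also store latent TGF-beta. In connective tissue these proteins come mostly from fibroblasts and smooth muscle cells.

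A level is a probe's log2 signal minus that of the array's 75th percentile, and levels of different probes are not compared. Differences are Mutant minus Control on the log2 scale. Per array 61.5% to 67.2% of probes exceeded background by the scanner's flag, no spot was saturated, and the number of arrays limits the precision. Control 4 stood apart from the other arrays, with a median correlation of 0.930 with them over all genes, against 0.963 for Mutant 2 and 0.972 to 0.978 for the others. The targeted gene, Ext1, read 2.93, 3.00, 3.41 and 3.24 in Mutant 1 to 4, against 3.04, 3.60, 3.64 and 2.02 in Control 1 to 4, and these overlapping levels include the untargeted cancer cells, so they do not check the genotype labels. Of 10 epithelial markers 8 were measured, with Krt8, Krt18 and Pdx1 above background in every tumour, while Epcam and Cldn4 did not pass the filter.

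None of the 10 genes passed the test between hosts over all genes, while 9 of them shared the same 2 leading tumours across genotypes. Control 4 had the highest level and Mutant 2 the second highest for 9 of 10 genes, an order found in 8.34% of all genes tested. Efemp1 was the exception, with its highest level in Mutant 1 and its second highest in Mutant 3. None of the 10 was called at an adjusted p under 0.05, where 0.0% of all genes were called. At an unadjusted p under 0.05 there were also 0 members, beside 2.91% of all genes. The median difference over the 10 genes was 0.00, and over all genes it was 0.01, with 6 members above 0 and 4 below, where 52.4% of all genes lay above 0.

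**Figure D1:**
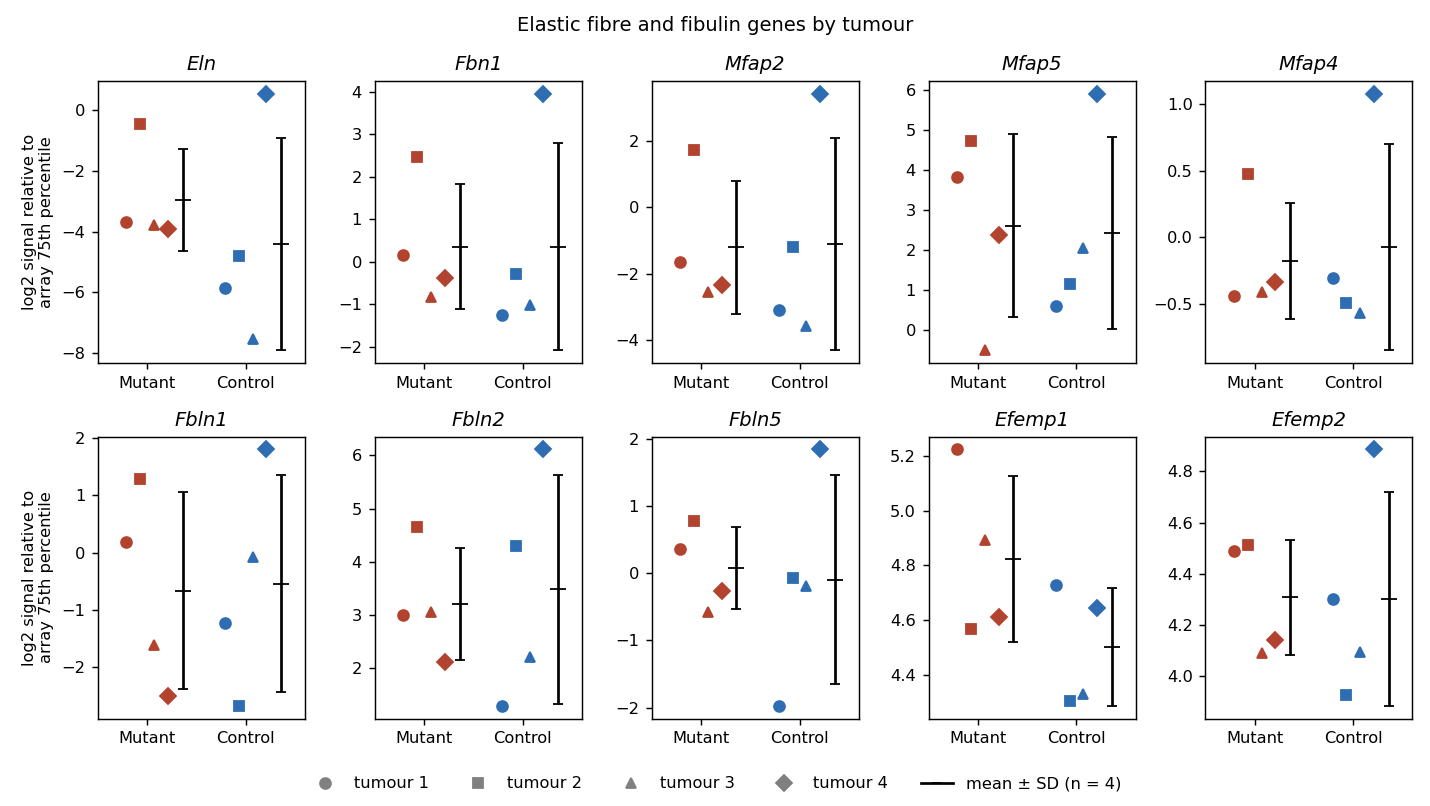
Log2 signal relative to the array 75th percentile for the 10 genes, with a point for each tumour (shape gives the tumour number), Mutant on the left and Control on the right, and bars for the mean ± SD of 4 tumours. The vertical scale differs between panels, and Control 4 and Mutant 2 are the top 2 points in 9 of 10 panels.

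Eln encodes tropoelastin, the soluble precursor of the elastic core. Its level was -3.68, -0.46, -3.78 and -3.90 in Mutant 1 to 4, against -5.87, -4.79, -7.54 and 0.54 in Control 1 to 4. Mutant 2 and Control 4 lay far above the other tumours of their groups, and the remaining Control tumours were lower than every Mutant tumour. The mean was -2.95 ± 1.67 in Mutant and -4.42 ± 3.49 in Control tumours (SD, n = 4 each). These differed by 1.46, with a 95% interval of -2.47 to 5.40 (limma adjusted p = 1.00). Without Control 4 the difference was 3.11 (limma adjusted p = 0.885), and without Control 3 it was 0.42. Eln was well above background on all 4 Mutant arrays but on 2 Control arrays, those of Control 2 and Control 4, so the Control mean rests in part on signals that were not well above background. With a background correction that compresses dim signals (normexp) the difference was 0.21. A second Eln probe, above background on 4 Mutant and 3 Control arrays, gave a difference of 0.77, with Mutant 2 at -1.59 and Control 4 at -1.02 again leading their groups. On that probe too the other Control tumours, at -5.82 to -5.12, were below every Mutant tumour, at -4.37 to -1.59. The share of all genes or probes that separate in this way without Control 4 was not counted, so these separations have no background beside them.

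Fbn1 encodes fibrillin-1, the main structural protein of microfibrils. It read 0.17, 2.47, -0.82 and -0.38 in Mutant 1 to 4, and -1.25, -0.28, -1.02 and 3.96 in Control 1 to 4. Control 4 and Mutant 2 were far above the rest, and the groups overlapped. Means of 0.36 ± 1.46 in Mutant and 0.35 ± 2.44 in Control tumours (SD, n = 4 each) differed by 0.00, with a 95% interval of -2.89 to 2.90 (limma adjusted p = 1.00). Within Control, the fourth tumour stood 4.80 above the mean of the other 3, and Mutant 2 stood 2.81 above the mean of the other Mutant tumours. The difference was 1.21 without Control 4 and -0.70 without Mutant 2, so its size and sign were set by which tumours were counted. A second Fbn1 probe gave a difference of 0.04.

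Mfap2 and Mfap5 encode the microfibril-associated glycoproteins MAGP-1 and MAGP-2, which bind fibrillin. Mfap2 was at -1.67, 1.71, -2.57 and -2.34 in Mutant 1 to 4 and at -3.11, -1.21, -3.57 and 3.40 in Control 1 to 4, a span of 126-fold between Control 3 and Control 4. Mutant 2 and Control 4 were the tumours above 0, and the others of both groups overlapped. The difference was -0.09 with a 95% interval of -3.92 to 3.73 (limma adjusted p = 1.00). It was 1.42 without Control 4 and -1.07 without Mutant 2. The other Mfap2 probe, above background on 2 Mutant and 3 Control arrays, gave -0.64. Mfap5 read 3.83, 4.73, -0.51 and 2.38 in Mutant 1 to 4, against 0.59, 1.15, 2.05 and 5.91 in Control 1 to 4. Mutant 1 was close behind Mutant 2 for this gene, and Mutant 3 was the lowest of the 8 tumours. The Mfap5 difference was 0.18 with a 95% interval of -3.20 to 3.56 (limma adjusted p = 1.00), and the groups overlapped. It was 1.34 without Control 4, 1.22 without Mutant 3 and -0.53 without Mutant 2.

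Mfap4, a microfibril-associated protein that binds elastin and collagen, varied over a much narrower range. Its levels were -0.44, 0.47, -0.41 and -0.34 in Mutant 1 to 4 and -0.31, -0.50, -0.57 and 1.08 in Control 1 to 4. The 6 tumours other than Mutant 2 and Control 4 lay within 0.26 of each other, a narrower range over those tumours than in all but 8.53% of genes. Over all 8 tumours the Mfap4 range was 1.65, and 80.2% of genes had a range as narrow or narrower. The difference between the groups was -0.10 with a 95% interval of -1.03 to 0.82 (limma adjusted p = 1.00), and 0.28 without Control 4.

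Among the fibulins, Fbln1 and Fbln2 encode matrix glycoproteins that bind fibronectin and basement membrane proteins as well as elastic fibres. Fbln1 was at 0.19, 1.28, -1.62 and -2.51 in Mutant 1 to 4, against -1.23, -2.68, -0.08 and 1.81 in Control 1 to 4. Fbln2 was at 2.99, 4.65, 3.06 and 2.12 in Mutant 1 to 4, and at 1.29, 4.30, 2.22 and 6.11 in Control 1 to 4. The order of the other 6 tumours differed between these genes, since Control 2 was the lowest for Fbln1 and the third highest for Fbln2. Differences were -0.12 for Fbln1 (95% interval -2.73 to 2.48) and -0.27 for Fbln2 (-2.72 to 2.18), with a limma adjusted p = 1.00 for both. Without Control 4 they were 0.66 for Fbln1 and 0.60 for Fbln2. Without Control 2 the Fbln1 difference was -0.83, and without Control 1 the Fbln2 difference was -1.003.

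Fbln5 encodes a fibulin that binds tropoelastin and integrins and is needed for elastic fibre assembly in mice. It read 0.35, 0.77, -0.57 and -0.26 in Mutant 1 to 4, against -1.97, -0.06, -0.19 and 1.84 in Control 1 to 4. Mutant tumours lay inside the range of the Control tumours, with an SD of 0.61 in Mutant and 1.56 in Control tumours (n = 4 each). The difference was 0.17 with a 95% interval of -1.54 to 1.88 (limma adjusted p = 1.00), 0.81 without Control 4 and -0.46 without Control 1.

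Efemp2 encodes fibulin-4, which recruits lysyl oxidase to tropoelastin. Its level was 4.49, 4.51, 4.09 and 4.14 in Mutant 1 to 4 and 4.30, 3.93, 4.09 and 4.89 in Control 1 to 4. The same 2 tumours led, but the whole range was 0.96, or 1.94-fold, where Fbn1 spanned 36.8-fold and Mfap5 85.8-fold. The difference was 0.01 with a 95% interval of -0.51 to 0.52 (limma adjusted p = 1.00), and 0.20 without Control 4. A second Efemp2 probe gave -0.19, and there Control 4 was again the highest, at 0.04, but Mutant 2, at -0.61, was not the second.

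**Figure D2:**
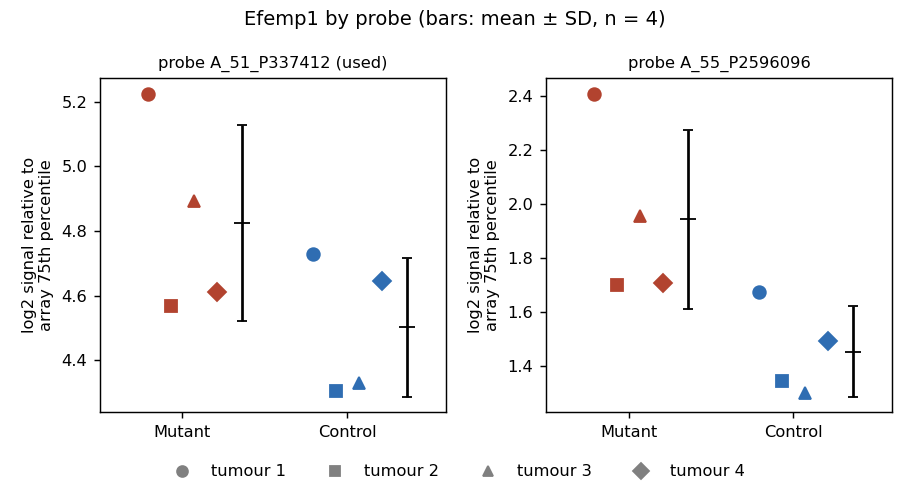
Efemp1 in the 8 tumours by probe, as log2 signal relative to the array 75th percentile, with Mutant on the left and Control on the right and bars for the mean ± SD of 4 tumours. Every Mutant tumour lies above every Control tumour on the second probe (1.70 to 2.41 against 1.30 to 1.67), and the groups overlap on the probe used for the gene.

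Efemp1 encodes fibulin-3, a secreted glycoprotein of the extracellular matrix, and it departed from the pattern of the others. On the brighter probe it read 5.22, 4.57, 4.89 and 4.61 in Mutant 1 to 4, against 4.73, 4.30, 4.33 and 4.64 in Control 1 to 4, so that the groups overlapped and Control 4 was not the leading tumour. The means were 4.82 ± 0.30 in Mutant and 4.50 ± 0.22 in Control tumours (SD, n = 4 each), 1.25-fold, with a difference of 0.32 and a 95% interval of -0.10 to 0.74 (limma adjusted p = 1.00). The second probe read 2.41, 1.70, 1.96 and 1.71 in Mutant 1 to 4 and 1.67, 1.35, 1.30 and 1.50 in Control 1 to 4. Here every Mutant tumour was above every Control tumour, as was the case for 0.736% of the 36824 probes that passed the filter, and the groups did not overlap in either direction for 1.66%. That probe differed by 0.49, or 1.40-fold, with a standard error of 0.18, and did not pass the test over all probes (limma adjusted p = 1.00; two-sided exact permutation p = 0.0286, the smallest that 4 against 4 tumours allow). Leaving out single tumours gave 0.19 to 0.41 for the brighter probe and 0.33 to 0.57 for the second, both lowest without Mutant 1. Across the alternative settings the Efemp1 difference kept its sign and never passed the test over all genes.

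Markers of other cell types were read beside the Efemp1 difference, and their part in it was not tested. All 12 skeletal muscle markers were above 0, with a median difference of 2.87 and list levels of -0.85 to 2.90 in Mutant and -3.53 to 0.26 in Control tumours. For such a list, the genes' log2 levels were centred gene by gene and then averaged in each tumour. Mutant 1 and Mutant 3, highest and second highest for Efemp1, had muscle levels of 2.08 and -0.85 and keratinocyte levels of -0.33 and 2.08. Above 0 were also 4 of 5 keratinocyte, 9 of 10 endothelial, 9 of 11 smooth muscle and pericyte and 6 of 8 macrophage markers. Of the fibroblast markers 5 of 14 were above 0, of the adipocyte markers 2 of 4, of the cartilage markers 1 of 3, and of all genes 52.4%. Of 8 epithelial markers 6 were below 0, with list levels of -0.50 to -0.01 in Mutant and -0.17 to 0.62 in Control tumours. None of these genes was called.

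The spread among tumours was wide for most members. The median range over the 8 tumours was 4.65 on the log2 scale for the 10 genes and 0.80 for all genes, and over the 6 tumours other than Control 4 and Mutant 2 it was 2.19 for the 10 genes and 0.60 for all genes. In the second median, Eln on the arrays of Control 1 and Control 3, where it was not well above background, was set to the dimmest signal still called above background there, which left the first median as it was. Counted in that way Eln spanned at least 77.0-fold, a lower bound that cannot be ranked against the 126-fold of Mfap2 and the 85.8-fold of Mfap5. Fbln2 spanned 28.3-fold and Fbln1 22.4-fold. Efemp1 and Efemp2, at 1.89-fold and 1.94-fold, were near the typical gene.

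**Figure D3:**
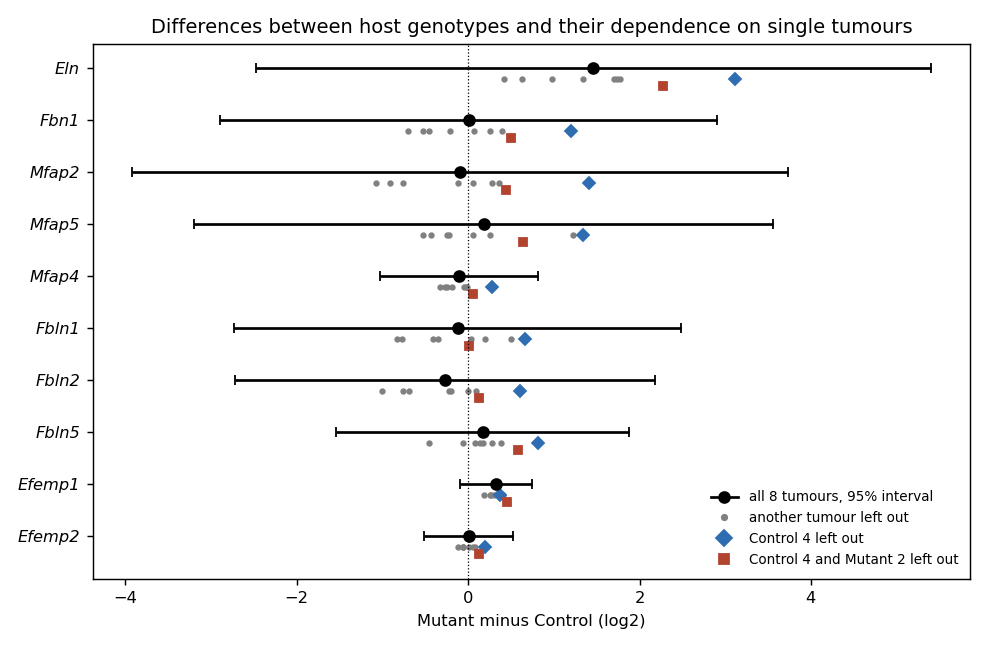
Mutant minus Control difference (log2) of each gene, with black points and 95% intervals for all 8 tumours, grey points and blue diamonds for fits with a single tumour left out, and red squares for the fit without Control 4 and Mutant 2. Every interval includes 0, and leaving out Control 4 gives a value above 0 for all 10 genes.

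The signs of the differences depended on which single tumour was left out. Without Control 4 all 10 differences were above 0, with a median of 0.74, while 46.9% of all genes were above 0 in the same fit. Without Mutant 2 the count was 2 above 0 and 8 below, with a median of -0.42 and 53.4% of all genes above 0. Other tumours moved the signs too, with 3 above 0 and 7 below without Control 1 (median -0.39) and without Control 2 (median -0.12). Without Mutant 3 the count was 8 above and 2 below (median 0.33), without Mutant 4 it was 9 above and 1 below (median 0.27), and without Control 3 or Mutant 1 it was 5 above and 5 below. Without both Control 4 and Mutant 2, a choice made after the data were seen, all 10 differences were again above 0, with a median of 0.45, ranging from 0.01 for Fbln1 to 2.28 for Eln. No member passed the test over all genes in any of these fits, where the smallest adjusted p of a member was 0.885 without Control 4, 1.00 without Mutant 2 and 0.995 without both.

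The arrays lay in 2 rows of 1 slide, each with 2 Mutant and 2 Control tumours. In the row of Mutant 1, Mutant 2, Control 1 and Control 2, all 10 genes were higher in Mutant tumours, from 0.38 for Efemp1 and for Efemp2 to 3.41 for Mfap5. In the row of Mutant 3, Mutant 4, Control 3 and Control 4, 9 were lower in Mutant tumours, down to -3.05 for Mfap5, and Efemp1 was 0.26 higher. Mutant 2 and Control 4 thus lay in different rows. The share of all genes with such signs within each row was not counted, so these counts have no background beside them. With the row as a block the differences were as without it, which the balanced layout fixes in advance, and no member was called.

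**Figure D4:**
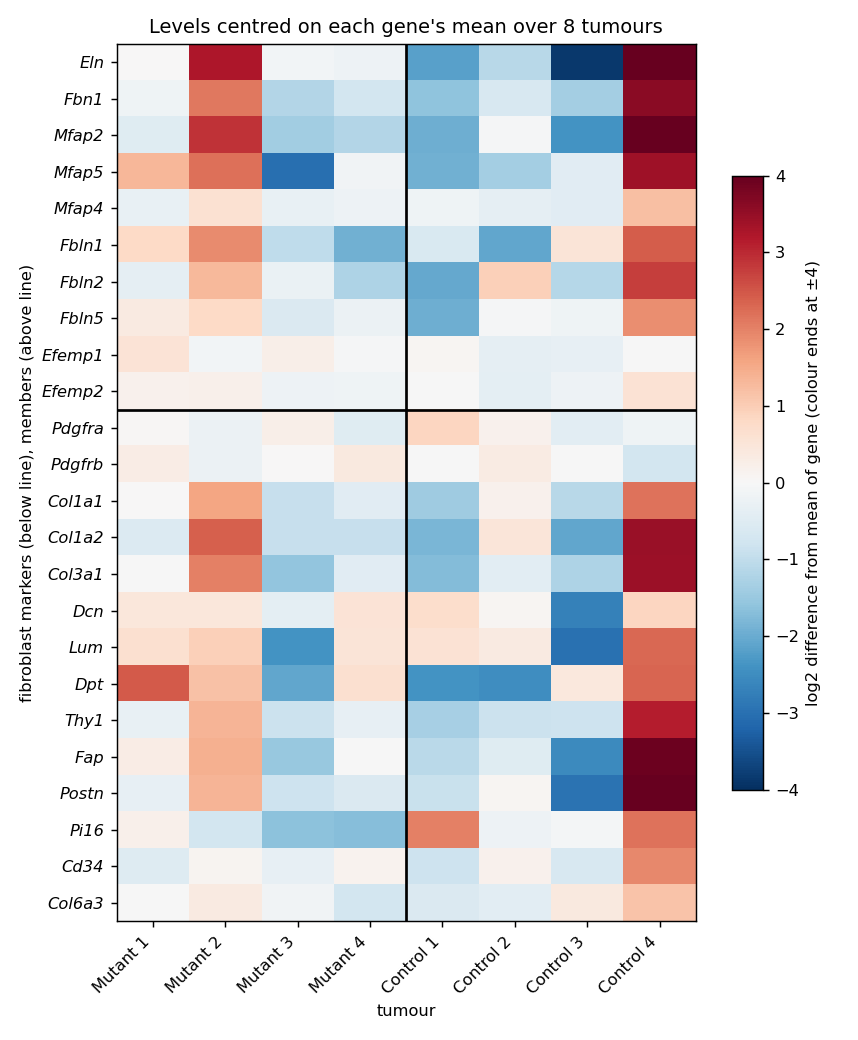
Log2 level of each gene centred on its mean over the 8 tumours, in colour, with tumours in columns (Mutant left of Control), the 10 members above the line and 14 fibroblast markers below it. Red marks a level above the mean, and the Control 4 and Mutant 2 columns are red for most members and collagens but not for Efemp1, Pdgfra and Pdgfrb.

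Fibroblast markers had the same leading tumours as these 9 genes in the whole-tumour RNA, where fewer cells of a type and less RNA per cell cannot be told apart. The level of 14 fibroblast markers was 0.19, 0.85, -0.96 and -0.24 in Mutant 1 to 4, against -0.57, -0.22, -1.20 and 2.15 in Control 1 to 4. Control 4 and Mutant 2 led here too, and 7 of the 14 markers had Control 4 highest and Mutant 2 second. Among them were the collagens Col1a1, Col1a2 and Col3a1, the surface protein Thy1, the protease Fap and the matricellular protein Postn. The PDGF receptors Pdgfra and Pdgfrb did not follow this order, with Control 4 at 2.52 for Pdgfra, inside the range of the other tumours, and at 3.26 for Pdgfrb, the lowest of all. Endothelial markers were at -0.02 in Mutant 2 and -0.18 in Control 4, and smooth muscle and pericyte markers at 0.51 in Mutant 2 and 0.03 in Control 4. Macrophage markers were at 0.38 in Mutant 2 and 1.12 in Control 4, and adipocyte markers, 4 of 8 measured, at 1.96 in Mutant 2 and 0.01 in Control 4. Skeletal muscle markers were at opposite extremes, with 2.90 in Mutant 2, the highest of the 8 tumours, and -3.53 in Control 4, the lowest. The part of each of these cell types in the members' levels was not tested.

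Each member was then correlated with the fibroblast marker level over the 8 tumours, in 10 relations with p-values adjusted by Benjamini and Hochberg. Pearson's r was highest for Fbn1, at 0.96 (two-sided exact permutation p = 0.000422, adjusted p = 0.00273; Spearman's rho 0.93, exact p = 0.00223, adjusted p = 0.0112). Mfap2 gave an r of 0.96 and Mfap4 of 0.92, and the lowest values were 0.68 for Fbln1 and 0.10 for Efemp1. After adjustment 8 relations passed by Pearson's r and 5 by Spearman's rho, and 8 passed by r with group means subtracted. Without Control 4 and Mutant 2, the tumours farthest from the median fibroblast level, r was 0.83 for Fbn1 (exact permutation p = 0.0472, adjusted p = 0.312). It was 0.80 for Mfap2, 0.65 for Eln, 0.60 for Mfap5, 0.45 for Efemp2 and 0.44 for Efemp1. Lower values were 0.33 for Fbln5, 0.32 for Mfap4, 0.29 for Fbln2 and -0.13 for Fbln1, so Efemp1 was no longer the lowest. Of 10 values of r 9 were still above 0 over those 6 tumours, and none passed after adjustment, so the relations that passed did so with these 2 tumours counted.

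**Figure D5:**
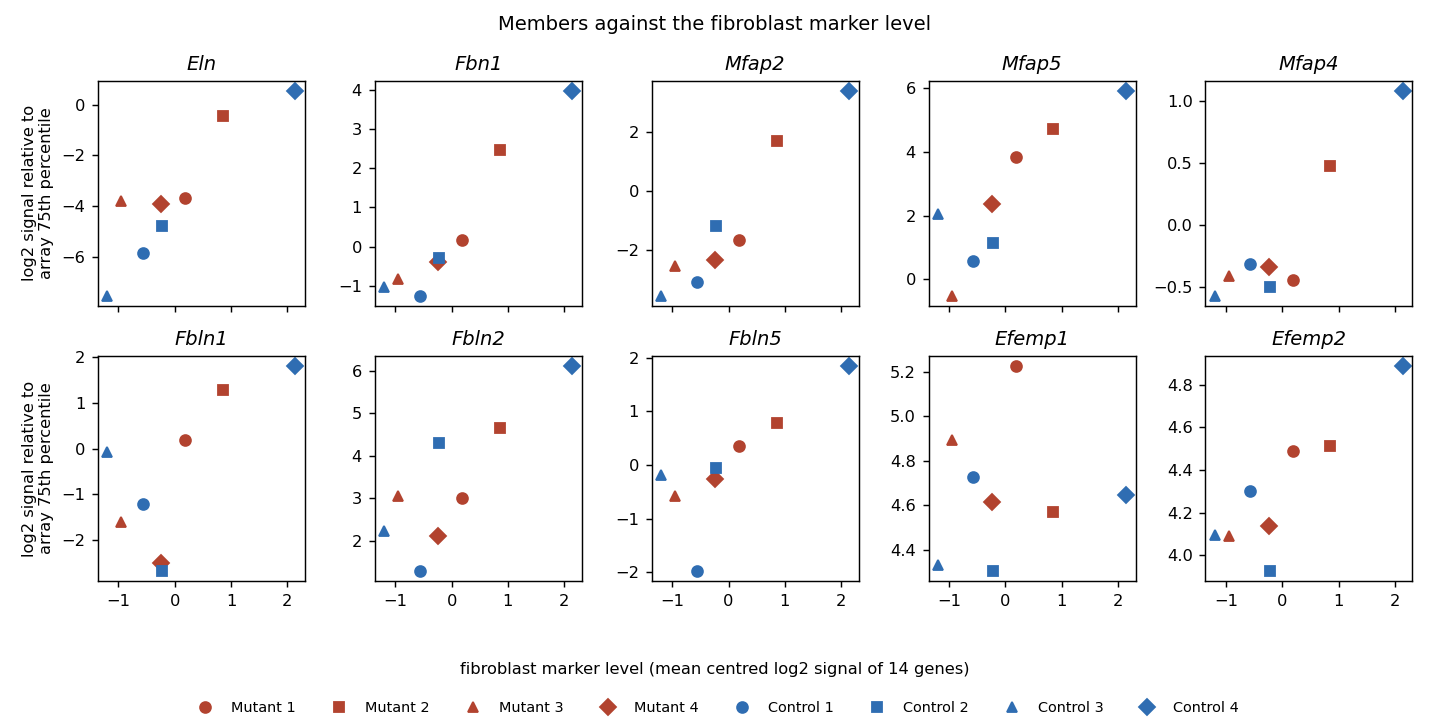
Log2 signal of each gene relative to the array 75th percentile (vertical) against the level of 14 fibroblast markers (horizontal), with 1 point per tumour, red for Mutant and blue for Control. Control 4 (blue diamond) and Mutant 2 (red square) lie at the upper right for 9 of 10 genes. Over all tumours r is 0.10 for Efemp1, and without Control 4 and Mutant 2 it is 0.44.

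Among the members themselves, the 36 pairs without Efemp1 had Pearson's r between 0.55 and 0.99 over the 8 tumours, with a median of 0.82, while the 9 pairs with Efemp1 ranged from -0.14 to 0.37. The closest pair was Fbn1 and Mfap2, a scaffold protein and its binding partner, with r = 0.99 (two-sided exact permutation p = 0.000372, adjusted p = 0.00837; Spearman's rho 0.95, adjusted p = 0.0502). Of 45 pairs 26 passed after adjustment by r and 0 by rho, where Fbn1 and Mfap2 had an exact p = 0.00114 before adjustment. Without Control 4 and Mutant 2 no pair passed, and the contrast with Efemp1 was not seen. The 36 pairs without Efemp1 then ranged from -0.61 to 0.84 with a median of 0.25, and the 9 pairs with it from -0.12 to 0.83 with a median of 0.38. The highest was again Fbn1 and Mfap2 (r = 0.84, exact permutation p = 0.0389, adjusted p = 0.667).

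The genes outside the lists whose level most resembled the mean centred level of the 10 members were Cd248, Zfp783, Chst12, Rian and Clmp, each over 8 tumours with Pearson's r between 0.987 and 0.995. Cd248, which encodes endosialin, a surface protein of fibroblasts and pericytes, had the highest r and read 2.36, 3.34, 1.42 and 1.72 in Mutant 1 to 4, against 1.06, 1.83, 1.46 and 4.45 in Control 1 to 4. Its difference between the groups was 0.01. These genes were picked for likeness among 16068, so the r values carry no test.

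Other genes of elastic fibre assembly were described in the same way. Of 26 partners 22 were measured, 14 were above 0 and 8 below, and the median difference was 0.10. In either direction 0 were called, and 1 of the 22 had an unadjusted limma p under 0.05, beside 2.91% of all genes. That gene was Thsd4, which encodes a fibrillin-binding ADAMTS-like protein and was 1.73-fold in Mutant tumours (0.04 ± 0.25 in Mutant, -0.75 ± 0.65 in Control tumours, SD, n = 4 each). Its groups overlapped, with Control 4 at 0.08, above Mutant 1, Mutant 2 and Mutant 4 (two-sided exact permutation p = 0.114). Next by p were Loxl4, a lysyl oxidase-like enzyme, at -0.63, the microfibril-associated Emilin2 at 0.33 and the protease Adamts10 at 0.35 (limma adjusted p = 1.00 for each of the 4). Of the 22 partners 8 were highest in Control 4, where 22.4% of all genes were.

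Proteases able to cut elastin were all measured, 11 in number, with 4 above 0, 7 below, a median of -0.09 and 0 called. Mmp7, matrilysin, was above background on all 4 Mutant and on no Control array, with a level of -0.61 ± 1.90 in Mutant tumours (SD, n = 4), and not well above background in Control tumours, where its measured mean was -6.70. Mmp7 thus passed the filter on dim probes through the Mutant arrays alone, and the share of all genes that did so was not counted. It was at least 34.7-fold higher in Mutant tumours than a bound on the Control mean (limma adjusted p = 1.00 on the measured levels). That was at least 20.8-fold without Mutant 1 and 55.9-fold without Mutant 3. The bound took the dimmest probe signal still called above background on each Control array. For Control 3 it took the measured Mmp7 level of -5.32, which was higher. The neutrophil protease Prtn3 differed by 1.20, neutrophil elastase Elane by -0.33 and the cathepsin Ctsl by -0.29 (limma adjusted p = 1.00 for each). In this list 8 genes had their highest level in Control 4, where 22.4% of all genes did. Of the 11 genes 3 also had Mutant 2 second, beside 8.34% of all genes. An unadjusted limma p under 0.05 was found for 1 of the 11, Mmp7, beside 2.91% of all genes.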

How the data were processed

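RNA of 8 tumours was measured on 1-colour Agilent mouse arrays, and intensity values were deposited by the authors as scanner files from Feature Extraction 10.7.3.1 per the file headers, where the submitters' processing notes name version 9.1. The processed signal is background-subtracted and detrended within the array, per the file headers. Its flag columns, deposited beside it, carry no unit (other), and the deposited value table holds intensity that equals the processed signal within 0.01% for at least 99.463% of probes. The array design names another build than the gene table used for names (GRCm38.p6), so no coordinates are given.

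Outlier spots (66 to 117 per array) were left out, spots averaged, log2 signals centred on the array's 75th percentile, and probes above background on at least 4 of 8 arrays kept. Each gene took its brightest probe. Mutant and Control tumours were set against each other by limma 3.58.1 (R 4.3.3), with Benjamini-Hochberg adjustment over all 16068 genes, and single values by exact permutation over 70 arrangements. Scripts used Python 3.11.15, with scipy 1.17.1. The fit was tested on simulated data with known changes, drawn for each gene independently, unlike these tumours, where many genes moved together. It recovered 49.0% of 2-fold, 82.2% of 4-fold and 88.9% of 8-fold changes, and 6.24% of its calls were false. Alternatives covered normexp (run on median spot signals, since mean signals are not among the columns used), other centring, filters, probe averaging, the deposited table, a variance trend, array weights, replicate and slide-row blocks and each tumour left out. Named genes beyond the members were, in the partner and protease lists, the 4 of smallest p, and the 5 genes most correlated with the members. Other genes given as values (Pdgfra, Pdgfrb, Col2a1, Comp, Col9a1 and further fibroblast or epithelial markers) were chosen after their values were seen. Members and lists were chosen with earlier results of these data known. The labels number the tumours but do not say that each came from its own host, so p-values measure the spread between these samples.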

Additional observations from a re-analysis of the deposited data

Results flagged for a closer look

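Within groups of 4 tumours, a single tumour far from its neighbours (a gap to the nearest above Dixon's 95% critical value, as a share of the group's range) was looked for on the 15 member probes, which made 30 groups. It was found 4 times, each time for Mutant 2 or Control 4, and chance gives about 1 in 20 for a single group. The groups share the same tumours, and 5 genes gave 2 probes each. They are therefore not independent, and no excess over chance is read from the count. On the Eln probe used for the gene, Mutant 2 was at -0.46, and the next Mutant tumour was at -3.68. On the other Eln probe, Control 4 was at -1.02, and the next Control tumour was at -5.12. For Mfap4, Mutant 2 was at 0.47 with the next Mutant tumour at -0.34, and Control 4 was at 1.08 with the next Control tumour at -0.31.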

How the results depend on the processing

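No gene was called under any of the 21 alternatives run, where the smallest adjusted p of a member was 0.607, for Eln with array weights. With the replicate number as a block 0 genes were called and every member difference was as without it, which the balanced numbering fixes in advance. Same-numbered tumours correlated at 0.08, -0.31, 0.05 and -0.31 in their deviations from the group means, so the numbers are not taken as pairs. Genes at an unadjusted p under 0.05 numbered 467, against 371 with the block, 1387 with array weights and 195 to 972 with a tumour left out. Array weights, lowest for Control 4 at 0.237, put all 10 members above 0 with a median of 0.70, against 0.00, and gave Eln 2.21, Mfap5 1.69, Fbln5 1.02 and Fbn1 0.89. They turned Fbln1 to 0.55, Fbln2 to 0.40, Mfap2 to 0.84 and Mfap4 to 0.081. Without Control 4 and Mutant 2, chosen after the data were seen, these were 0.013, 0.12, 0.44 and 0.061. Fbn1 turned to -0.038 with normexp, -0.022 with quantile normalization and -0.018 with median centring, and Efemp2 to -0.017 with median centring and -0.095 with the mean of its probes. The cause was not tested. With single tumours left out the median difference ranged from -0.42 to 0.74, Eln from 0.42 to 3.11, Fbn1 from -0.70 to 1.21, Fbln1 from -0.83 to 0.66, Fbln2 from -1.003 to 0.60, Fbln5 from -0.46 to 0.81, Mfap2 from -1.07 to 1.42, Mfap4 from -0.32 to 0.28, Mfap5 from -0.53 to 1.34, Efemp1 from 0.19 to 0.41 and Efemp2 from -0.12 to 0.20. Eln is the member that signal over background limits most, and it was not measured under the filter on all 8 arrays.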

Other observations

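Col2a1, the collagen best known from cartilage, had the same 2 leading tumours as most elastic fibre genes. It read 0.30, 2.45, -0.99 and -0.15 in Mutant 1 to 4, against -1.14, -0.22, -0.94 and 4.57 in Control 1 to 4. Of 6 cartilage markers 3 were measured, without Acan, and 1 of these had Control 4 highest and Mutant 2 second. Comp was highest in Mutant 2, at 0.09, with Control 4 at -0.98. Col9a1, above background on 2 Mutant and 3 Control arrays, was highest in Control 4, at -5.02, with Mutant 2 at -5.76. Rian, a long noncoding RNA of the imprinted Dlk1 region, was at 0.03 in Mutant 2 and 1.77 in Control 4, and at -4.20 to -2.45 in the other tumours. Chst12, a chondroitin sulfotransferase, spanned a narrower range with the same leading tumours, 1.28 in Mutant 2 and 1.71 in Control 4, against 0.55 to 0.92 in the others.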
